A study of Rattus norvegicus with 24 samples.

Results

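The let-7 passenger strands rno-let-7d-3p, rno-let-7a-1-3p and rno-let-7c-2-3p are the 3p arms of let-7 precursors, 3 of the 753 microRNA names counted in serum of male Wistar Kyoto rats. They were chosen by name, as the 3p arms set against the 5p arm of the same precursor. The choice was made with their counts and fish oil differences in these libraries already known. Fish oil differences of the strands, and of their ratio to the 5p arm, are therefore given as descriptions with no test.

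Small RNA was sequenced in 23 libraries, 1 per rat, in 4 groups that crossed diet with exposure. Fish oil ozone rats (n = 5) ate a diet with 6% fish oil by weight and breathed 0.8 ppm ozone for 4 hours a day on 2 days. Fish oil air rats (n = 6) ate that diet and breathed filtered air. Normal ozone rats (n = 6) ate normal chow and had the ozone exposure, and normal air rats (n = 6) ate normal chow and breathed filtered air. The rats were 4 weeks old when the diets started, and they were fed them for 8 weeks. The sixth fish oil ozone library, replicate 2, was not analysed here. No other added oil was studied in these libraries, so fish oil and added oil in general cannot be told apart.

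In a let-7 precursor the 5p arm carries the let-7 sequence proper, which Argonaute holds as the guide strand and pairs through its seed to messenger RNAs of growth and differentiation genes. The 3p arm is the partner in the duplex that Dicer cuts out, and it is usually discarded as the passenger strand. Which arm is kept is known to depend on the pairing strength at the ends of the duplex and on the first base of each strand. In serum, microRNAs circulate bound to Argonaute, to lipoproteins or inside vesicles, and they come from blood cells and many tissues.

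The strands are shown first, since their identity decides what the counts can separate. The mature sequences below come from RefSeq (GRCr8), which matched 11 of the 12 3p names of the let-7 family with miR-98 and 9 of the 9 5p names. They are written 5′ to 3′ with the seed, bases 2 to 8, in capitals, each 3p strand above the 5p strand of its precursor.
rno-let-7d-3p: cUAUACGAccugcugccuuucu
rno-let-7d-5p: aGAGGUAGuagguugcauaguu
rno-let-7a-1-3p: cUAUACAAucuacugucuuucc
rno-let-7a-5p: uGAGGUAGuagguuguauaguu
rno-let-7c-2-3p: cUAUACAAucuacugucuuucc
rno-let-7c-5p: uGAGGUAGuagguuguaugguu
The mature let-7a-1-3p and let-7c-2-3p sequences were identical over all 22 bases, so no read of a full mature strand can separate those names. Their seed, UAUACAA, was shared with let-7b-3p, let-7f-1-3p and miR-98-3p. Let-7d-3p had the seed UAUACGA, which no other of the 11 matched 3p strands had. Counted from 1 at the 5′ end, with the let-7a-1-3p base first, let-7d-3p differed at 5 positions (A7G, U9C, A12G, U16C and C22U), of which the first lies in the seed. Among the 5p strands all 9 had the seed GAGGUAG. With the let-7a-5p base first, let-7d-5p differed by U1A and U16C, and it was the only one of the 9 that began with A. The 11 matched 3p strands all began with C.

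The precursor hairpins from the same source show where each pair of arms lies. They are written 5′ to 3′ with both mature arms in capitals, the 5p arm first.
Mirlet7d: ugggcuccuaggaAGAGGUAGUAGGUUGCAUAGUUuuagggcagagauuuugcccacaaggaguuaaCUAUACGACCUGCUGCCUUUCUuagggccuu
Mirlet7a1: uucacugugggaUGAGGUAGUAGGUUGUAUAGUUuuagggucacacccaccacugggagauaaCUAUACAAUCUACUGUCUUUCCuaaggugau
Mirlet7c2: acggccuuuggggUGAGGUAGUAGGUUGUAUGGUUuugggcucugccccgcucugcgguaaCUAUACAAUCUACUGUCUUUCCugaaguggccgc
The loop between the arms was 32 bases in Mirlet7d, 29 in Mirlet7a1 and 26 in Mirlet7c2. In the deposited tables (rn5), let-7a-1-3p lay on chromosome 17 at 18474029 to 18474051 and let-7d-3p at 18476160 to 18476182, in the cluster that also holds let-7f-1. Let-7c-2-3p lay on chromosome 7 at 126300982 to 126301004, beside let-7b-3p at 126301396 to 126301418. The tables do not state whether positions count from 0 or 1; at the 758 loci with a RefSeq sequence, stop minus start equalled the mature length, so 1 of the printed ends lies outside the strand.

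Within the family, let-7d-3p was the only 3p name counted more often than its 5p partner over all libraries, so for let-7d the counts go against the name passenger strand. Summed over 23 libraries, let-7d-3p had 4084 counts and let-7d-5p had 2114, so the 3p arm held 65.9% of the pair (95% exact Clopper-Pearson interval 64.7 to 67.1). Let-7d-3p exceeded let-7d-5p in 21 of 23 libraries. The exceptions were fish oil ozone 5, with 44 counts of let-7d-3p and 56 of let-7d-5p, and fish oil air 6, with 101 and 116. Let-7a-1-3p held 205 counts against 2559 of let-7a-5p, or 7.42% of the pair (6.47 to 8.46). Let-7c-2-3p held 226 counts against 19306 of let-7c-5p, or 1.16% (1.01 to 1.32), and neither strand exceeded its partner in any library. These intervals cover counting error only and leave out the spread between libraries, where the let-7d share ran from 44.0 to 78.5%. They may understate counting error too, because PCR copies of 1 molecule cannot be recognised without molecular identifiers.

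The pairs of let-7a-1 and let-7c-2 are not closed, because each 5p name is also made by a second precursor. Let-7c-5p had 9671 counts at its chromosome 11 locus and 9635 at its chromosome 7 locus. Set against the chromosome 7 locus alone, let-7c-2-3p held 2.29% of the pair. Let-7a-5p had 1701 counts on chromosome 17 and 858 on chromosome 8, and let-7a-1-3p held 10.8% against the chromosome 17 locus alone. The 858 counts on chromosome 8 were equal in all 23 libraries to those of miR-3596a, which has the same interval. Both had fractional values there, with a lowest of 10.5 counts. If reads were divided between these names, let-7a-5p is undercounted and the let-7a-1-3p share of 7.42% is too high. Whether they were divided is not stated. Of the 431 counts given to the identical strands, 47.6% (42.8 to 52.4) were at let-7a-1-3p, whose count was above that of let-7c-2-3p in 7 libraries, below it in 10 and equal in 6. How the deposited counts placed reads that match several loci is not stated, so values of let-7a-1-3p and let-7c-2-3p taken singly are uncertain.

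The strands held 97.3% of the 4640 counts of the family's 12 3p names, and let-7d-3p alone held 88.0%. Of the remaining 9 names, 7 had at least 1 count, and their highest count in a library was 8. Let-7e-3p had 34 counts over all libraries, let-7f-2-3p had 33 and let-7b-3p had 31. Let-7i-3p had 12, miR-98-3p had 7, let-7f-1-3p had 5 and let-7c-1-3p had 3, while let-7a-2-3p and let-7g-3p were at 0. Let-7f-1-3p, which lies between let-7a-1-3p and let-7d-3p in the cluster, was thus counted 5 times where let-7d-3p was counted 4084 times. All 12 3p names together made 6.17% of the family's counts. The low-count filter left 136 names over the whole table and kept the 3 strands and all 9 5p names, but none of the other 9 3p names.

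Among 79 precursors with both arms named and at least 20 counts a library on average, the 3p share of let-7d had 42 below it and 36 above it. The next lower was miR-140, with 63.9%, and the next higher miR-106b, with 78.8%. Most precursors were far more one-sided, with a median of 0.551% for the rarer arm. In let-7d the rarer arm, here the 5p arm, held 34.1%. A larger share of the rarer arm was seen in 3 precursors, miR-144 (47.8%), miR-181c (42.8%) and miR-140 (36.1%).

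**Figure D1:**
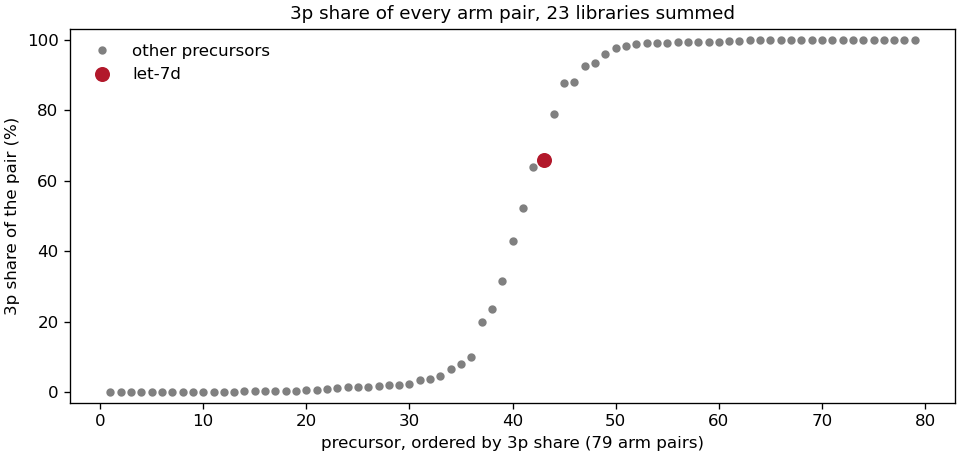
Share of counts held by the 3p arm (%, vertical axis) in each of 79 precursors, ordered by that share (horizontal axis), with 23 libraries summed and let-7d in red. Most precursors sit near 0% or 100%, and let-7d is at 65.9%, between miR-140 and miR-106b.

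Ratios within a library need no library scaling, and by this measure let-7d was less tilted to the 3p arm on fish oil. In fish oil ozone, let-7d-3p had 100, 51, 118, 44 and 72 counts beside 46, 32, 71, 56 and 53 of let-7d-5p. In fish oil air the lowest, median and highest counts were 57, 98.5 and 128 for let-7d-3p and 43, 66 and 116 for let-7d-5p. In normal ozone they were 123, 319.5 and 393 for let-7d-3p and 64, 115 and 217 for let-7d-5p. In normal air they were 109, 222 and 415 for let-7d-3p and 68, 90.5 and 180 for let-7d-5p. In these unscaled counts all fish oil ozone libraries lay below all normal ozone libraries for let-7d-3p, and likewise for let-7a-5p. The share of all names that did so was not counted. The median microRNA total was 32988 counts in fish oil ozone and 63547 in normal ozone, so unscaled counts are lower in fish oil ozone for that reason alone. In CPM these groups overlapped for both let-7d-3p and let-7a-5p. Under air the let-7d-3p counts overlapped.

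The 3p share of the let-7d pair, with counts summed in each group, was 59.9% in fish oil ozone (56.0 to 63.7) and 69.2% in normal ozone (67.3 to 71.0). It was 57.2% in fish oil air (54.1 to 60.3) and 67.9% in normal air (65.9 to 69.9). These intervals are for the summed counts and leave out the spread between rats. Single libraries ran from 44.0 to 68.5% in fish oil ozone and from 61.8 to 74.8% in normal ozone. Under air they ran from 46.5 to 74.9% on fish oil and from 55.7 to 78.5% on the normal diet. The geometric mean of the 3p to 5p ratio, with 0.5 added to each count, was 1.43 in fish oil ozone and 2.23 in normal ozone. It was 1.34 in fish oil air and 2.05 in normal air. On the log2 scale the ratio averaged 0.52 ± 0.54 in fish oil ozone (SD, n = 5) and 1.15 ± 0.37 in normal ozone (SD, n = 6), a difference of −0.63 (SE 0.28). It averaged 0.42 ± 0.65 in fish oil air and 1.04 ± 0.55 in normal air (SD, n = 6 each), a difference of −0.62 (SE 0.35). The groups overlapped in both exposures, with 3 of 5 fish oil ozone libraries below all normal ozone libraries and 4 of 6 fish oil air libraries below all normal air libraries. With 1 library of the compared groups left out at a time, the difference stayed between −0.78 and −0.42 under ozone and between −0.85 and −0.45 under air.

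The ratios of the identical strands were higher on fish oil by geometric mean, from few counts. The let-7a-1-3p to let-7a-5p ratio had a geometric mean of 0.115 in fish oil ozone and 0.038 in normal ozone, a log2 difference of +1.59 (SE 0.80). Under air it was 0.111 on fish oil and 0.081 on the normal diet, a difference of +0.47 (SE 0.44). The let-7c-2-3p to let-7c-5p ratio was 0.015 in fish oil ozone and 0.007 in normal ozone (+1.12, SE 0.69). It was 0.018 in fish oil air and 0.013 in normal air (+0.48, SE 0.35). The low ratios in normal ozone came from replicates 1, 2 and 4 for let-7a-1-3p, with 5, 1 and 2 counts, and from replicates 1 and 4 for let-7c-2-3p, with 3 and 2. Counts at or under 3, the floor taken here, were not told from 0. Under ozone the let-7c-2 difference was +0.69 without normal ozone replicate 4. Under air, without fish oil air replicate 3, the let-7a-1 difference was +0.18 and the let-7c-2 difference +0.25; without fish oil air replicate 5 the let-7a-1 difference was +0.80.

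**Figure D2:**
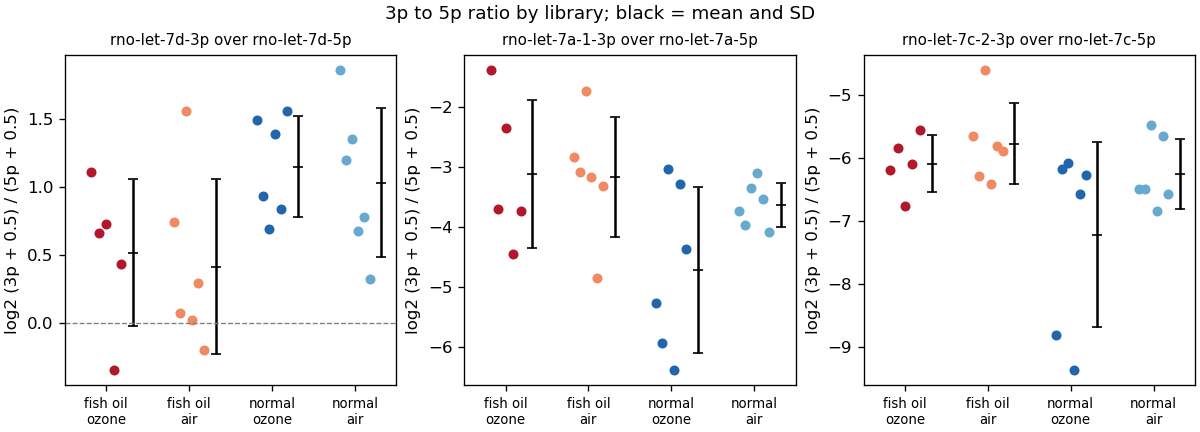
Log2 ratio of the 3p to the 5p count, 0.5 added to each (vertical axis), in every library of the 4 groups (horizontal axis) for let-7d, let-7a-1 and let-7c-2; points are libraries and black marks the mean and SD. For let-7d, 1 fish oil ozone and 1 fish oil air library are below the dashed line of equal counts, and all normal diet libraries are above it.

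A shift of the arms was also seen in other precursors. In 12 precursors, let-7d among them, both arms had a mean of at least 10 counts. Over these, the log2 ratio under ozone differed between fish oil and the normal diet by a median of −0.46, between −1.03 for miR-30e and +1.65 for miR-27a, and 3 were lower than let-7d. Under air the median was −0.10, between −0.82 for miR-21 and +0.83 for miR-126a, and 2 were lower than let-7d. The let-7d difference lay within the range of the other precursors in both exposures.

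Levels scaled between libraries put let-7d-3p lower on fish oil and the identical strands higher, and the second direction depended on the scaling. Levels are CPM, counts relative to a library total that TMM (trimmed mean of M values) has adjusted. Let-7d-3p averaged 2262 ± 607 CPM in fish oil ozone (SD, n = 5) and 4541 ± 1435 CPM in normal ozone (SD, n = 6). It averaged 2441 ± 867 CPM in fish oil air and 3845 ± 1453 CPM in normal air (SD, n = 6 each). The 2 highest fish oil air libraries, the higher at 3497 CPM, lay within the normal air range of 2763 to 6393 CPM, and the highest fish oil ozone library, at 3078 CPM, lay above the lowest normal ozone library, at 2817 CPM. The fitted log2 difference was −1.0 (SE 0.29) under ozone, −0.66 (SE 0.27) under air and −0.83 (SE 0.20) averaged over exposures. With total count scaling it was −0.95 under ozone, −0.43 under air and −0.69 averaged. The order of group means was normal ozone, normal air, fish oil air and fish oil ozone, and neighbours in that order overlapped.

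Let-7d-5p, the 5p strand of the same hairpin, averaged 1571 ± 407 CPM in fish oil ozone (SD, n = 5) and 1960 ± 245 CPM in normal ozone (SD, n = 6). It averaged 1761 ± 333 CPM in fish oil air and 1803 ± 325 CPM in normal air (SD, n = 6 each). Its log2 difference was −0.32 (SE 0.23, edgeR adjusted p = 0.320) under ozone, −0.03 (SE 0.22, edgeR adjusted p = 0.937) under air and −0.18 (SE 0.16, edgeR adjusted p = 0.403) averaged. Let-7a-5p differed by −0.16 averaged (SE 0.19, edgeR adjusted p = 0.542) and let-7c-5p by +0.06 (SE 0.19, edgeR adjusted p = 0.828). Of the 9 5p strands of the family, let-7g-5p alone fell, by 0.45 averaged over exposures (SE 0.15, edgeR adjusted p = 0.0165), and 8 did not pass; 36.8% of all 136 names were called there. The median of the 9 was −0.13, beside +0.06 for all names. With the implied read total described below, 8 of the 9 were called beside 52.2% of all names, and with total count scaling 0 of 9 beside 30.9%. Averaged over exposures with the implied total, let-7d-5p was at −1.09 (SE 0.30) and the median of all names at −0.87. Under ozone 0 of 9 passed beside 22.8% of all names (median −0.32, all names 0.00), and under air 0 of 9 beside 5.88% (median +0.13, all names +0.08).

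Let-7a-1-3p averaged 242 ± 180 CPM in fish oil ozone (SD, n = 5) and 111 ± 90.3 CPM in normal ozone (SD, n = 6). It averaged 237 ± 86.8 CPM in fish oil air and 155 ± 53.9 CPM in normal air (SD, n = 6 each). Let-7c-2-3p averaged 251 ± 72.8 CPM in fish oil ozone and 148 ± 89.5 CPM in normal ozone, and 263 ± 82.2 CPM in fish oil air and 177 ± 50.4 CPM in normal air, with the same numbers of libraries. A count of 3 was worth 31.8 to 129 CPM across libraries, so single libraries of either strand lay near the floor, and all groups overlapped. The raw counts overlapped between diets: fish oil ozone had 17, 5, 14, 3 and 3 counts of let-7a-1-3p, against a lowest, median and highest of 1, 5.5 and 29 in normal ozone. Those of let-7c-2-3p were 12, 6, 9, 7 and 7 in fish oil ozone, against 2, 8.5 and 22 in normal ozone. Fish oil air had 3, 9.5 and 14 counts of let-7a-1-3p, against 5, 9.5 and 14 in normal air.

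The fitted difference of let-7a-1-3p was +1.02 (SE 0.52) under ozone and +0.61 (SE 0.48) under air with TMM, but −0.03 (SE 0.69) and −0.31 (SE 0.66) once libraries were scaled to their implied read total. For let-7c-2-3p it was +0.77 (SE 0.44) under ozone and +0.54 (SE 0.41) under air with TMM, but −0.37 (SE 0.65) and −0.40 (SE 0.60) with the implied read total. That total is the divisor that links the deposited counts to the deposited RPM; microRNAs made 0.437 to 1.20% of it in fish oil ozone and 1.03 to 2.41% in normal ozone, and 0.374 to 0.830% in fish oil air and 0.849 to 2.34% in normal air. Using it moved the median of all 136 names under ozone to −0.96 and under air to −0.78. Let-7d-3p was at −1.89 (SE 0.49) under ozone and −1.42 (SE 0.45) under air on that scale, so it kept its direction and lay below the median of all names on both scales. The identical strands lay above that median on both scales. With TMM, 1 library moved their values by over 1.5 times: under ozone let-7a-1-3p was at +0.49 without fish oil ozone replicate 1 and at +1.56 without normal ozone replicate 3. Let-7c-2-3p was at +0.49 without normal ozone replicate 4 under ozone and at +0.33 without fish oil air replicate 1 under air. With their counts summed as 1 strand, the TMM difference was +0.91 (SE 0.39) under ozone and +0.59 (SE 0.36) under air.

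**Figure D3:**
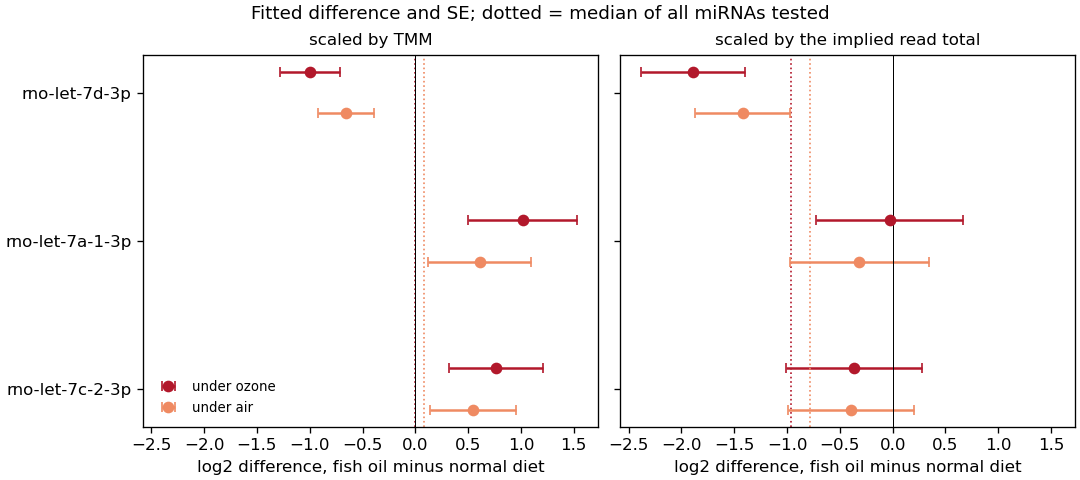
Fitted log2 difference between fish oil and the normal diet (horizontal axis, bars 1 SE) for each strand under ozone and under air, scaled by TMM (left) and by the implied read total (right); dotted lines mark the median of all 136 names. Let-7d-3p is left of the dotted lines in both panels, while let-7a-1-3p and let-7c-2-3p are right of zero on the left and left of zero on the right.

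In the fit, 22.8% of all 136 names passed the threshold under ozone (31 names), 36.8% averaged over exposures (50 names) and 5.88% under air (8 names). Since the strands were put forward with these differences known, no call is given for them. The TMM difference of let-7d-3p under ozone stayed between −1.17 and −0.86 with 1 library of the compared groups left out at a time. Under air it stayed between −0.82 and −0.45, and averaged over exposures between −0.93 and −0.75. Let-7a-1-3p was at +0.81 (SE 0.35) averaged over exposures and ranged from +0.525 to +1.09. Let-7c-2-3p was at +0.65 (SE 0.30) and ranged from +0.50 to +0.75. The identical strands summed were at +0.75 (SE 0.27) averaged over exposures.

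**Figure D4:**
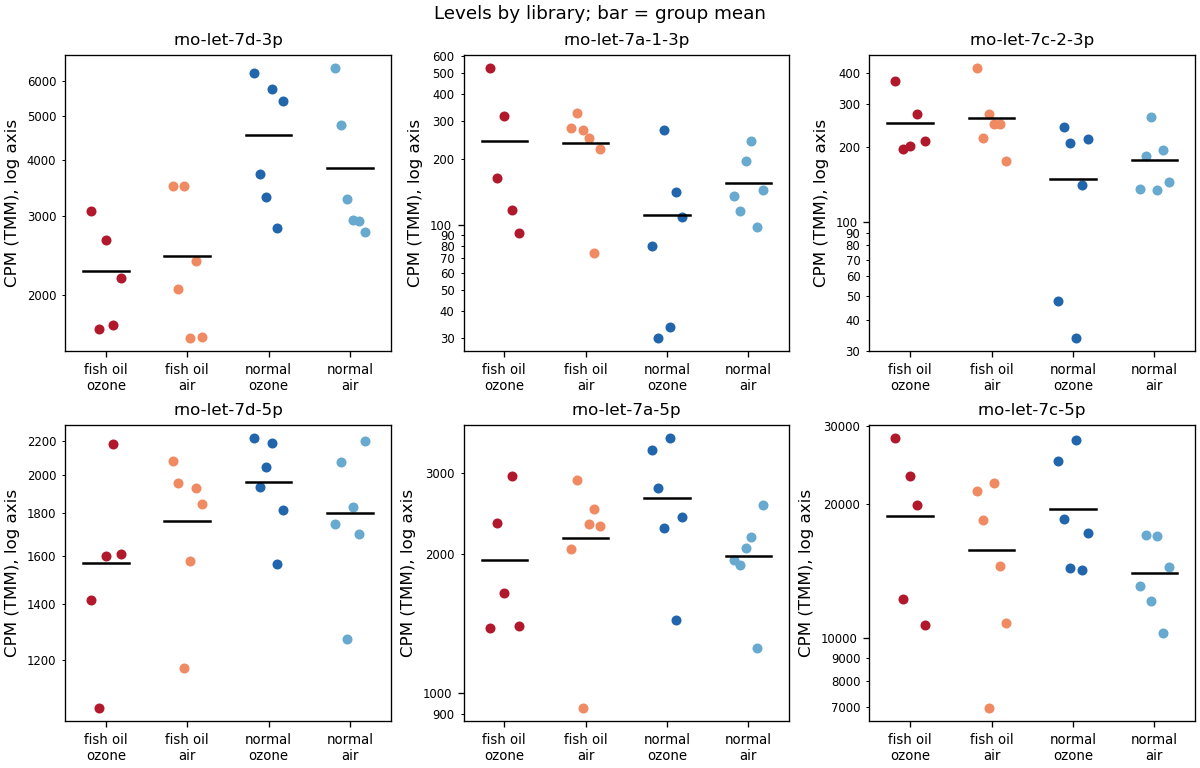
Level in CPM after TMM scaling (vertical log axis) of each 3p strand (top) and its 5p partner (bottom) in the 4 groups (horizontal axis); points are libraries and bars are group means. Let-7d-3p means are 2262 CPM in fish oil ozone and 2441 CPM in fish oil air, against 4541 CPM in normal ozone and 3845 CPM in normal air, while the let-7d-5p means lie between 1571 and 1960 CPM.

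For ozone the strands were not chosen, and tests are given. On the normal diet let-7d-3p differed by +0.24 (SE 0.26, edgeR adjusted p = 0.939), with 5 of 6 normal ozone libraries above the normal air median. Let-7a-1-3p differed by −0.33 (SE 0.49) and let-7c-2-3p by −0.29 (SE 0.41), both at an edgeR adjusted p of 0.939. None of the 3 passed, nor did any of the 136 names (0%), with 4 at an unadjusted p below 0.05; DESeq2 called 1 name of the whole table and limma 0. On fish oil let-7d-3p differed by −0.10 (SE 0.28), let-7a-1-3p by +0.07 (SE 0.51) and let-7c-2-3p by −0.07 (SE 0.44), all at an edgeR adjusted p of 0.983. Again 0 of 3 and 0 of 136 (0%) passed, with 10 names at an unadjusted p below 0.05 and 0 by DESeq2 or limma. The small differences on fish oil changed sign with 1 library left out or with another scaling.

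Whether the ozone difference itself differed between diets was tested as an interaction. It was −0.34 (SE 0.39, edgeR adjusted p = 0.935) for let-7d-3p, +0.41 (SE 0.71, edgeR adjusted p = 0.947) for let-7a-1-3p and +0.22 (SE 0.60, edgeR adjusted p = 0.947) for let-7c-2-3p. Here too 0 of 3 and 0 of 136 (0%) passed, with 6 names at an unadjusted p below 0.05 and 0 by DESeq2 or limma. The ozone differences of the 5p partners did not pass either; the highest was let-7c-5p on the normal diet, at +0.48 (SE 0.26, edgeR adjusted p = 0.939), with all 6 normal ozone libraries above the normal air median.

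The arm balance was tested for ozone in 6 tests over libraries, with adjustment over them. For let-7d the log2 ratio averaged 1.15 in normal ozone and 1.04 in normal air, a difference of +0.12 (SE 0.27; exact two-sided permutation p = 0.669, adjusted 0.957). On fish oil it averaged 0.52 in ozone and 0.42 in air, a difference of +0.10 (SE 0.36; exact permutation p = 0.805, adjusted 0.957). Let-7a-1 had −4.71 in normal ozone and −3.63 in normal air, a difference of −1.08 (SE 0.59; exact permutation p = 0.110, adjusted 0.630). Let-7c-2 had −7.21 in normal ozone and −6.26 in normal air, a difference of −0.96 (SE 0.64; exact permutation p = 0.210, adjusted 0.630). On fish oil the differences were +0.05 (SE 0.67; exact permutation p = 0.957, adjusted 0.957) for let-7a-1 and −0.32 (SE 0.34; exact permutation p = 0.407, adjusted 0.814) for let-7c-2. No arm ratio was thus distinguishable between ozone and air at this depth and number of libraries, where the smallest p the test allows is 0.00216 for 6 against 6 and 0.00433 for 5 against 6.

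The microRNAs whose level followed let-7d-3p most closely over the 23 libraries were not its own partner. Spearman's rho of log2 CPM was 0.702 with miR-191a-5p, 0.667 with miR-151-3p and 0.636 with let-7g-5p. With let-7d-5p it was 0.269, which ranked 26th of 135. After group means were subtracted, the highest values were 0.440 with miR-328a-3p, 0.427 with miR-191a-5p and 0.416 with miR-151-3p, and 0.077 with let-7d-5p. Let-7a-1-3p followed miR-152-3p (0.505), miR-30c-5p (0.494) and miR-450a-5p (0.482), and let-7c-2-3p followed miR-30e-5p (0.659), miR-145-5p (0.634) and miR-21-5p (0.621). The identical let-7a-1-3p and let-7c-2-3p had a rho of 0.376 with each other. These values are descriptions over libraries that share diets, library totals and scaling, and few counts lower those of the rarer strands.

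Serum holds no cells of its own, so markers of cells that could release RNA were read in the same libraries. Of 11 markers, 2 fell on fish oil averaged over exposures in the TMM-scaled fit, 2 rose and 7 did not pass. In that comparison 36.8% of all 136 names were called (50 names), so the markers did not stand out by their number of calls. The markers that fell were miR-191a-5p, abundant in blood cells, by 1.54 (SE 0.22, edgeR adjusted p = 7.84e-06), and miR-223-3p, a myeloid and platelet microRNA, by 0.80 (SE 0.26, edgeR adjusted p = 0.0165). MiR-144-3p of red cells rose by 0.98 (SE 0.37, edgeR adjusted p = 0.0322) and miR-126a-3p of platelets and endothelium by 1.06 (SE 0.34, edgeR adjusted p = 0.0136), but they were at +0.08 and −0.002 with the implied read total. Both had few counts, which overlapped between diets. MiR-144-3p had 2 to 33 counts in fish oil ozone, 6 to 19 in fish oil air, 3 to 24 in normal ozone and 2 to 26 in normal air. MiR-126a-3p had 6 to 22, 8 to 22, 3 to 20 and 1 to 20 in the same order. MiR-223-3p did not pass with total count scaling (−0.68, edgeR adjusted p = 0.0914). Among those that did not pass, miR-451-5p was at +0.58 and miR-16-5p at +0.06, both red cell microRNAs, and miR-122-5p, the main liver microRNA, was at −1.02. The miR-122-5p average joined unlike exposures. Under air its difference of −2.06 passed, at an edgeR adjusted p of 0.0472, whereas under ozone it stood at +0.01. Once scaled to the implied read total, its average of −1.92 passed too, at an edgeR adjusted p of 0.000234. On that scale miR-16-5p and the muscle microRNA miR-206-3p also passed, at −0.87 and −1.24. The median of all names there was −0.87, and 52.2% of them were called. In counts, miR-191a-5p had 985 to 4560 counts in fish oil ozone and 7103 to 21762 in normal ozone, and 1650 to 6352 in fish oil air and 10250 to 19980 in normal air. Red cell release, read as log2 of miR-451-5p over miR-23a-3p, had a median of −2.56 in fish oil ozone, −1.89 in fish oil air, −2.68 in normal ozone and −2.11 in normal air, and the groups overlapped. It rested on few counts of miR-451-5p, 3 to 30, 13 to 75, 5 to 75 and 16 to 65 in that order. MiR-122-5p had 317 to 1351 counts in fish oil ozone, 108 to 506 in fish oil air, 400 to 2398 in normal ozone and 231 to 5625 in normal air. MiR-223-3p had 18 to 81 counts in fish oil ozone, 21 to 80 in fish oil air, 44 to 287 in normal ozone and 34 to 264 in normal air. The muscle microRNAs miR-1-3p, miR-133a-3p and miR-206-3p had at most 131 counts in a library, with differences of +0.25, +0.33 and −0.16 that did not pass with TMM. The part of these sources in the let-7d-3p levels was not tested. MicroRNA totals were 23279 to 53696 counts in fish oil libraries and 33740 to 94264 in normal diet libraries.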

How the data were processed

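Serum microRNAs were read from deposited tables of 832 loci in 23 libraries, joined to groups through the animal number in the labels. The authors' estimated counts (expected counts, with fractions at 42 loci) were deposited per locus; the second table the authors deposited holds RPM, which equal counts divided by an implied read total of 2243915 to 7729947 plus 0.0001. The submitters' processing notes name Bowtie 1.0.0, Partek, bcl2fastq and the rat build rn5; the order of steps, the strand setting and the handling of reads that match several loci are not stated there or in the labels. Per the labels' protocols, RNA came from 100 µl of serum and 10 ng entered each library.

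Loci of 1 name were summed, rounded, filtered (filterByExpr by group, minimum count 10, minimum total 15), TMM-scaled and fitted in edgeR 4.0.16 under R 4.3.3, with its robust quasi-likelihood test, two-sided, with 1 mean per group over all 23 libraries. Benjamini-Hochberg adjustment ran over 136 names in each of 6 contrasts, with a threshold of 0.05; rose and fell are used only past it. Arm ratios used exact permutation tests (SciPy 1.17.1). The fit was tested on simulated counts with randomly picked names changed in the fish oil air libraries. No change in the microRNA share of all reads was simulated, so that test does not bear on the choice of scaling. MicroRNA totals were 23279 to 94264 counts per library, and 3 counts were taken as the floor. The labels name no batch; animal numbers run in blocks by group, so any batch along them cannot be told apart from the groups.

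The named microRNAs are the 3 strands, their 5p partners, the family's other strands by counts and ranges, names with the same sequence or counts, the 3 most alike in rank correlation, and the neighbouring arm pairs; miR-144, miR-181c, miR-30e, miR-27a, miR-21 and miR-126a were named after their values were seen. The members and lists were chosen with earlier results of these data known. Alternatives were DESeq2 1.42.0 size factors and test, total count and implied total scaling, no filter, limma 3.58.1 on log2(RPM + 1), a pseudocount of 2, the 5p strand of the same locus, identical strands summed, fits of the compared groups, and each library left out. Adding miR-3596a to let-7a-5p was chosen after seeing the data.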

Additional observations from a re-analysis of the deposited data

Results flagged for a closer look

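In fish oil air replicate 5, let-7a-1-3p was at 6.83 log2 CPM (3 counts), far below the other 5 libraries of its group, which lay between 8.04 and 8.51. The gap to the nearest of them was 0.717 of the whole range, above the critical value of 0.625 for 6 samples. This was 1 of 24 group values examined for a library that stands apart, and chance sets apart about 1 in 20. The part of counting error in this value was not tested.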

How the results depend on the processing

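No paired analysis was possible because each replicate is a different rat and replicate numbers follow accession order. Fish oil levels depend on the scaling, and few counts limit let-7a-1-3p and let-7c-2-3p; the cause of each shift below was not tested. With the implied read total, the let-7d-3p difference for fish oil was −1.42 under air, −1.89 under ozone and −1.66 averaged, with limma on RPM −1.39, −1.84 and −1.62, and with total count scaling −0.43, −0.95 and −0.69. Let-7a-1-3p was at −0.31, −0.028 and −0.17 with the implied total and −0.17, +0.088 and −0.040 with limma. Let-7c-2-3p was at −0.40, −0.37 and −0.38 with the implied total and −0.18, −0.085 and −0.13 with limma. Let-7c-5p averaged turned to −0.87 with the implied total, −0.86 with limma and −0.045 without the low-count filter, and let-7d-5p under air to +0.17 with total count scaling. For ozone on fish oil, let-7d-3p turned to +0.076 with limma, let-7a-1-3p to −0.076 with total count scaling and −0.015 with identical strands summed, and let-7c-2-3p to +0.035 with the implied total and +0.051 with limma. Let-7c-2-3p for ozone on the normal diet was +0.0057 with the implied total. The let-7a-1 arm ratio for ozone on fish oil turned to −0.31 with identical strands summed and −0.0047 with miR-3596a added to let-7a-5p. The let-7c-2-3p share of its pair was 2.29% against the counts placed at its own 5p locus, whose reads also match the second let-7c-5p locus. Of the family's 9 5p strands, fish oil averaged called 8 with the implied total and 8 with limma, where 52.2% of all names were called by each, and 0 with total count scaling, where 30.9% were. Under ozone it called 6 with the implied total (33.8% of all names), 7 with limma (35.3%) and 1 each with total count scaling (18.4%), DESeq2 size factors (22.1%) and the DESeq2 test (25.7%). Under air it called 2 with the implied total (27.9%) and 1 with limma (23.5%); with 1 library left out it called 0 to 1 under either exposure. With 1 library of the compared groups left out at a time, ozone on fish oil ranged from −0.26 to 0.035 for let-7d-3p, from −0.42 to 0.31 for let-7a-1-3p and from −0.27 to 0.10 for let-7c-2-3p. The interaction ranged from −0.062 to 0.95 for let-7a-1-3p and from −0.022 to 0.42 for let-7c-2-3p. Fish oil averaged ranged from −0.10 to 0.14 for let-7c-5p, and fish oil under air from −0.15 to 0.063 for let-7d-5p. The arm ratio for ozone on fish oil ranged from −0.046 to 0.33 for let-7d and from −0.39 to 0.38 for let-7a-1, and for ozone on the normal diet from −0.022 to 0.28 for let-7d.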
